A study of Saccharomyces cerevisiae with 4 samples.

Results

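The genes described here encode enzymes of arginine synthesis and breakdown in the budding yeast Saccharomyces cerevisiae. They are 9 of the 6212 rows of the deposited table, taken by name: ARG1, ARG2, ARG3, ARG4, ARG5,6, ARG8 and CPA1 for synthesis, and CAR1 and CAR2 for breakdown. They were chosen by pathway with their log2 ratios in both comparisons already in view, so the members' own values are given as a description, and no p-value is given for a member.

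Each of 4 spotted 2-colour arrays gives, for every row, the ratio of 2 total RNA samples as a log2 value, where 1 means 2-fold. On 2 arrays, untreated cells of the strain labelled DBY4741 with the genotype reg1::KanMX (reg1 below) were set against untreated wild-type DBY4741 cells, all in log phase in YPD (rich medium with glucose) at 28 °C. On the other 2 arrays, reg1::KanMX cells in YPD given 16 mM KOH for 10 min, which brought the medium from about pH 5.5 to about pH 8.0, were set against reg1::KanMX cells given 16 mM KCl for 10 min. Both channels of these arrays therefore lack REG1, and no wild-type cells under alkali were analysed here. REG1 encodes the subunit that directs the protein phosphatase Glc7 to the glucose-repression pathway. The dyes were swapped between experiments 1 and 2 of each comparison, and the labels do not say whether the experiments came from separate cultures, so p-values measure only the spread between these arrays, which may be technical.

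Yeast makes arginine from glutamate. Acetylated intermediates are built up in the mitochondrion as far as ornithine, which is exported to the cytosol, joined to carbamoyl phosphate, and turned into arginine by way of argininosuccinate. When arginine is plentiful, the regulators Arg80, Arg81 and Mcm1 lower the transcription of synthesis genes and activate CAR1 and CAR2, whose products return arginine to ornithine and on towards proline and glutamate. When amino acids are scarce, the activator Gcn4 raises the synthesis genes. In rich medium, nitrogen catabolite repression further limits the use of poor nitrogen sources.

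REG1 (YDR028C), the deleted gene, had log2 ratios of -1.10 and -0.96 on the mutant arrays, a mean of -1.03 ± 0.10 (SD, n = 2), so these ratios run as reg1 over wild type. REG1 had no value on the alkali arrays. Their ratios are likely KOH over KCl, since the titles and the channel labels name KOH before KCl. Were they to run the other way, every sign of the alkali comparison would turn, higher would read lower in its ranks and shares, and the sizes would stay. Between 4746 and 5190 rows were measured per array. The arrays of a comparison correlated across genes at r = 0.591 for reg1 over wild type (4765 genes) and r = 0.955 for alkali (4584 genes). A ratio within an array holds no level, so no gene's abundance is set against another's. In RNA of whole cultures, fewer cells that express a gene and less of its RNA per cell cannot be told apart.

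The row at which each member was read bears on its value. In the last 2794 rows of the table the reg1-over-wild-type columns are displaced, and there a gene's value is read 2 rows further down. This applies to ARG1, ARG8, CPA1, CAR1 and CAR2, whereas ARG2, ARG3, ARG4 and ARG5,6 lie in rows read at their own names. The displacement was checked around each member from missing values alone, by correlating how many mutant arrays had a value in a row with how many alkali arrays had one, over the member's row and up to 100 rows to each side. For 9 of 9 members the highest correlation among 9 displacements was at the position used. Around the 5 displaced members r was between 0.714 and 0.793 when read 2 rows down and between -0.096 and 0.078 at the row's own name. Around the other 4 members r was between 0.643 and 0.740 at the row's own name.

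Missing values show only that the columns differ in position. That the mutant columns are the displaced ones was read from cytosolic ribosomal protein genes in those rows. Over 58 such genes, the mutant columns had a median log2 ratio of -0.19 as named and -0.56 after the shift of 2 rows. The alkali columns had a median of -1.67 as named and -0.56 when read 2 rows up.

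**Figure D1:**
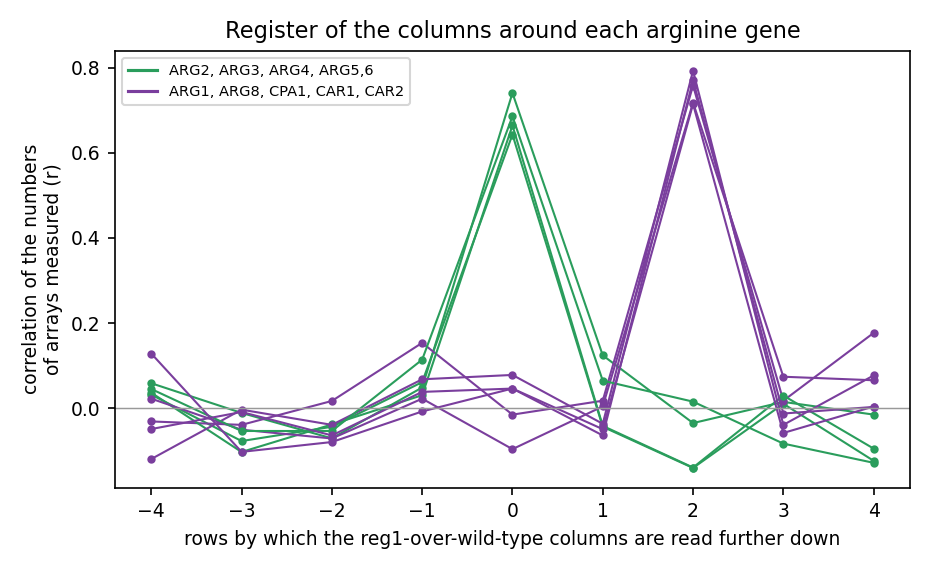
Correlation (r, vertical axis) between the number of mutant arrays and the number of alkali arrays with a value, over the rows around each arginine gene, against the number of rows by which the mutant columns are read further down (horizontal axis). The lines of ARG2, ARG3, ARG4 and ARG5,6 peak at 0 rows and those of ARG1, ARG8, CPA1, CAR1 and CAR2 at 2 rows.

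In the reg1 mutant, 3 of 6 tested arginine synthesis genes were called lower than in wild type, and 1 of 2 breakdown genes, CAR2, was called higher. Over all genes tested, 1.95% were called lower and 5.2% higher. The lowest ratios were those of ARG3, ARG1, ARG5,6 and ARG4. ARG8 was the synthesis gene that stood on the other side of 0. Of 8 members measured on both arrays, 5 were below 0 on both, all of them synthesis genes, against 34.5% of all genes. The other 3, ARG8 and the breakdown genes, were above 0 on both, against 27.4% of all genes.

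The mitochondrial part of synthesis was mixed. ARG2 (YJL071W) encodes acetylglutamate synthase, which starts the pathway, and it had log2 ratios of -0.70 in experiment 1 and -0.49 in experiment 2 (mean -0.60 ± 0.15, SD, n = 2). ARG5,6 (YER069W), whose product is cut into acetylglutamate kinase and acetylglutamyl-phosphate reductase, had -0.88 and -1.32 (mean -1.10 ± 0.31), which is 2.14-fold lower. Both arrays gave ARG5,6 a lower value than either array gave ARG2. ARG8 (YOL140W) encodes acetylornithine aminotransferase and had 0.71 and 0.44 (mean 0.57 ± 0.19). Read at its own name it would have had -0.50 and -0.30, so its direction rests on the displacement.

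In the cytosolic part, all genes were below 0 wherever they were measured. ARG3 (YJL088W) encodes ornithine carbamoyltransferase, which joins ornithine to carbamoyl phosphate, and it was measured in experiment 1 only, at -2.96. That single ratio, 7.79-fold lower than wild type, was the 6th lowest of 5037 on that array. With no second value it has no replicate check and was not tested. CPA1 (YOR303W), the small subunit of the carbamoyl phosphate synthetase dedicated to arginine, had -0.38 and -0.44 (mean -0.41 ± 0.05).

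ARG1 (YOL058W) encodes argininosuccinate synthetase, the enzyme that joins citrulline to aspartate. Its ratios were -1.34 and -2.38 (mean -1.86 ± 0.73), 3.63-fold lower than wild type and the 9th lowest of 4765 genes. The arrays differed by 1.03 for ARG1, more than for any other member, and both lay below every value of the other members except ARG3. Read at its own name, ARG1 would have had -0.24 and -0.77. ARG4 (YHR018C), argininosuccinate lyase, which releases arginine, had -0.90 and -1.22 (mean -1.06 ± 0.23), a 2.09-fold decrease. The values of ARG4 and ARG5,6 overlapped, so these genes have no order between them.

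CAR1 (YPL111W) encodes arginase, which splits arginine into ornithine and urea, and it had 0.33 and 0.59 (mean 0.46 ± 0.18). CAR2 (YLR438W) encodes ornithine aminotransferase, the next step of breakdown, and had 0.93 and 0.82 (mean 0.88 ± 0.08), 1.84-fold higher. CAR2 lay above CAR1 on both arrays without overlap. The range of CAR1 overlapped that of ARG8, and both breakdown genes lay above every value of the other synthesis genes. Both are read 2 rows down. At their own names CAR1 would have had 0.28 and -0.01, and CAR2 0.29 and -0.17.

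The test across all genes was limma's, with all 4 arrays in 1 fit and Benjamini-Hochberg adjustment, and a gene was called at an adjusted p under 0.05. It called 341 of 4765 genes (7.16%), 248 higher (5.2%) and 93 lower (1.95%) in reg1. With arrays scaled to the same spread the split was 356 higher and 245 lower. Of the 8 members tested, ARG1, ARG4 and ARG5,6 were called lower, CAR2 was called higher, and ARG2, ARG8, CPA1 and CAR1 were not called. The median over these 8 was -0.50, against -0.05 over all genes tested. These counts describe members that were listed with this comparison known, and nothing is read from them. The mutant arrays were more variable than the alkali arrays that shared their estimate of the spread (median SD over genes 0.23 against 0.13), and when the spread came from the mutant arrays only, ARG1 alone was still called. Leaving out any 1 of the 4 arrays ended the calls of ARG4, ARG5,6 and CAR2, and leaving out mutant experiment 2 ended that of ARG1. With a dye term, or with arrays scaled to the same spread, ARG2 was called lower and ARG8 higher as well.

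After 10 min of alkali, 5 of 7 arginine synthesis genes were called higher in the reg1 cells that received KOH than in those that received KCl. Of all genes tested, 61.8% were called, 29.1% higher and 32.7% lower. The breakdown genes lay slightly below 0 and were not called. ARG3 stood out, at 28.8-fold. CPA1, ARG5,6, ARG1 and ARG4 were between 2.74-fold and 4.39-fold higher. ARG2 and ARG8, which act in the mitochondrion on either side of ARG5,6, were close to 0. Of the 9 members 6 were above 0 on both arrays, against 41.5% of all genes, and 2 were below 0 on both, against 49.5%.

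ARG3 had log2 ratios of 5.11 and 4.59 (mean 4.85 ± 0.37, SD, n = 2), the 21st highest of 4584 genes. CPA1 had 2.15 and 2.12 (mean 2.14 ± 0.02), the closest pair of values of any member. ARG5,6 had 2.43 and 1.78 (mean 2.11 ± 0.46). ARG3 lay above every value of the other members by more than the difference between its arrays, while the range of ARG5,6 enclosed both values of CPA1.

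ARG1 had 1.30 and 1.88 (mean 1.59 ± 0.41), and ARG4 had 1.23 and 1.68 (mean 1.46 ± 0.32). The ranges of ARG1 and ARG4 overlapped each other, and that of ARG1 overlapped the range of ARG5,6. Both values of ARG5,6 lay above both values of ARG4, and the arrays do not order ARG1 against either. ARG8 had 0.36 and 0.09 (mean 0.23 ± 0.19) and ARG2 had 0.36 and -0.11 (mean 0.13 ± 0.33), both apart from ARG4 and overlapping each other. CAR1 had -0.43 and -0.22 (mean -0.33 ± 0.15) and CAR2 had -0.39 and -0.11 (mean -0.25 ± 0.20), with overlapping ranges. On both arrays each breakdown gene was below every synthesis gene measured on the same array, with 1 exception in experiment 2, where ARG2 and CAR2 both had -0.11.

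In this comparison 2832 of 4584 genes were called (61.8%), 1334 higher (29.1%) and 1498 lower (32.7%). The balance turned to 1419 higher and 1345 lower after centring, and to 683 and 555 with arrays scaled to the same spread. Among the 9 members ARG1, ARG3, ARG4, ARG5,6 and CPA1 were called higher, none was called lower, and ARG2, ARG8, CAR1 and CAR2 were not called. The members' median was 1.46, against -0.09 over all genes tested. Most genes on these arrays were called, so the sizes are given as well. ARG1, ARG3, ARG4, ARG5,6 and CPA1 were at least 2-fold higher on both arrays, as were 681 of 4584 genes (14.9%). A further 616 genes (13.4%) were at least 2-fold lower on both arrays. ARG1 was not called without alkali experiment 2, nor with arrays scaled to the same spread.

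**Figure D2:**
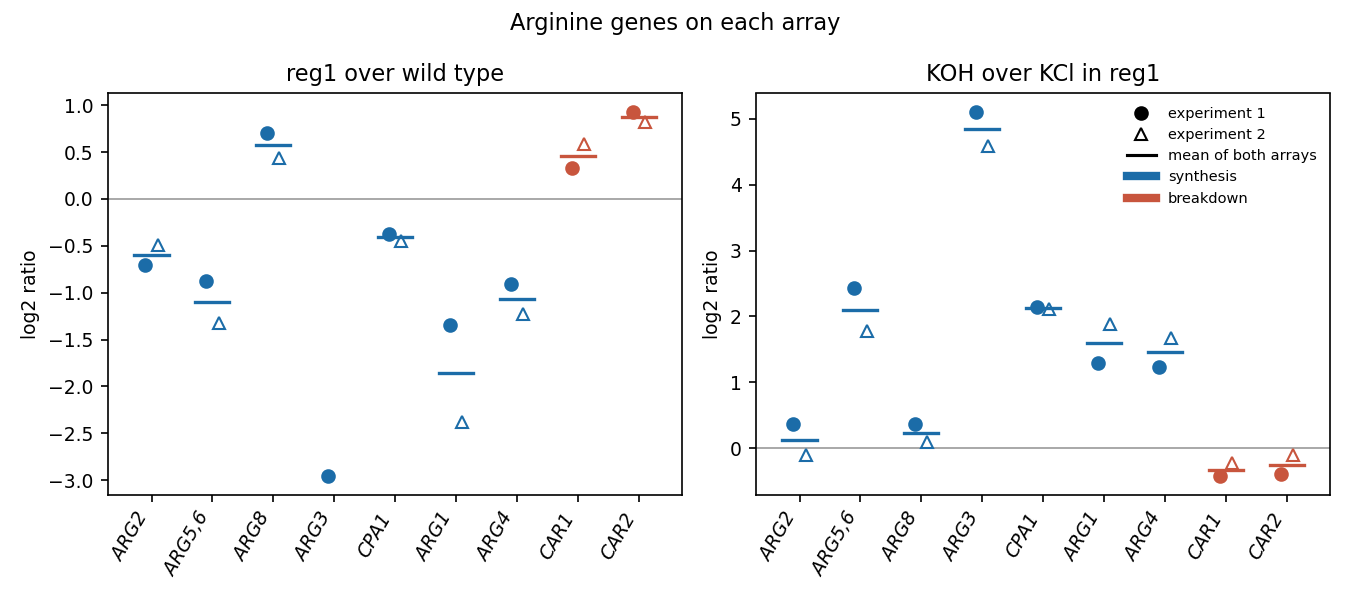
Log2 ratio (vertical axis) of each arginine gene on each array, for reg1 over wild type on the left and KOH over KCl in reg1 on the right, in pathway order with synthesis in blue and breakdown in red. Filled circles are experiment 1, open triangles experiment 2, and bars the mean of both. ARG3 has 1 value on the left, at -2.96, and the highest on the right, with a mean of 4.85.

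Side by side, ARG3, ARG1, ARG5,6 and ARG4, the lowest in the mutant, were among the synthesis genes called higher after alkali. The sizes did not follow 1 order. ARG1 (mean -1.86 in the mutant) had 1.59 after alkali, and CPA1 (-0.41 in the mutant) had 2.14. ARG1, ARG4, ARG5,6 and CPA1 were below 0 on both mutant arrays and above 0 on both alkali arrays, which held for 4 of 8 members measured on all 4 arrays and for 373 of 4315 genes (8.64%). ARG3 had the same signs on the 3 arrays that measured it. CAR1 and CAR2 had the opposite signs on all 4 arrays, as had 354 of 4315 genes (8.2%). ARG1, ARG4 and ARG5,6 were called lower in reg1 and higher after KOH, as were 26 of 4315 genes (0.603%). reg1 cells are in the numerator of the one ratio and in both channels of the other, in cultures that the labels treat and harvest differently, and no test of the combination was made.

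**Figure D3:**
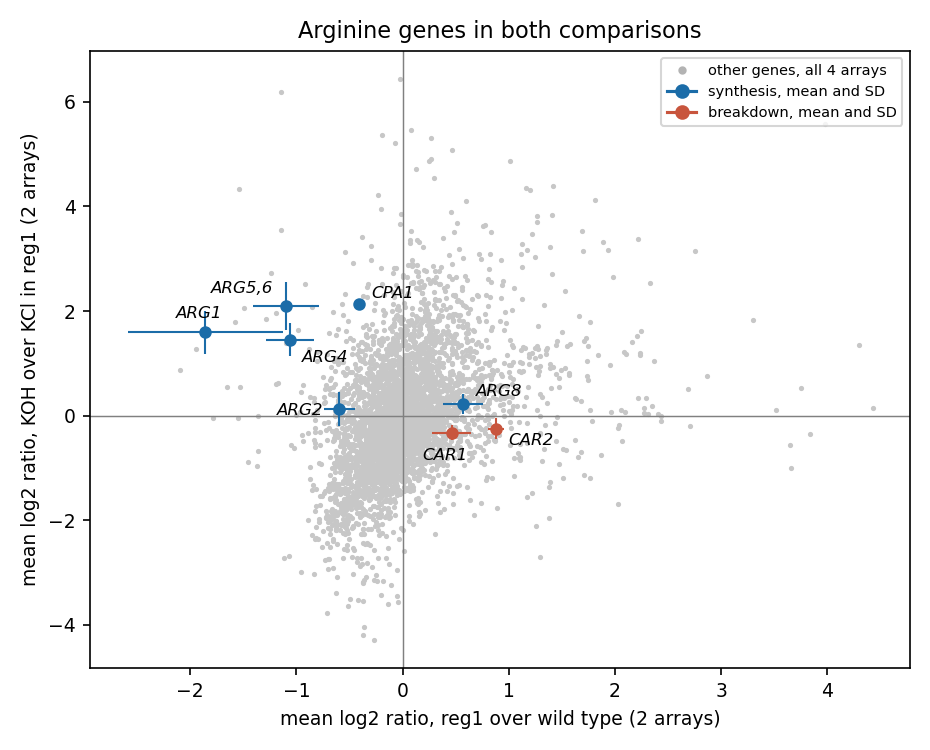
Mean log2 ratio of KOH over KCl in reg1 (vertical axis) against that of reg1 over wild type (horizontal axis), with the SD of 2 arrays as bars for the arginine genes and the other genes measured on all 4 arrays in grey. ARG1, ARG4, ARG5,6 and CPA1 lie at the upper left and CAR1 and CAR2 at the lower right. ARG3, with no second mutant value, is not drawn.

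By Euclidean distance over the 4 log2 ratios, the non-member genes most like ARG1, among 4315 genes with all 4 values, were HXT17 (distance 1.07), YLR465C (1.27), PAU5 (1.39), ROG3 (1.49) and YHL049C (1.58). ARG4 was at 1.25 from ARG1 and ARG5,6 at 1.62, whereas CPA1 was at 2.33 and ARG2 at 2.97. For CAR1 the nearest were SDH8 (0.15), SDS23 (0.17), TOS2 (0.19), GEP4 (0.22) and SRB2 (0.27), all closer than CAR2 (0.65). Genes with ratios near 0 have many near neighbours by this measure.

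ARG7 and ORT1, genes of arginine synthesis that are no members, were tested in the same fit. The related lists were also chosen with earlier results of these data known, so p-values of their genes are given as a description. ARG7, the mitochondrial ornithine acetyltransferase, fell in reg1, with -0.66 and -0.71 (mean -0.69 ± 0.04, limma adjusted p = 0.0498), and rose after alkali to 0.68 ± 0.11 (limma adjusted p = 0.00944). ORT1, the carrier that exports ornithine from the mitochondrion, had a mean of -0.28 in reg1, not called, and rose after alkali to 0.56 ± 0.11 (limma adjusted p = 0.0190). Over all genes 61.8% were called after alkali, and neither ARG7 nor ORT1 was called there with arrays scaled to the same spread. Both are read 2 rows down in the mutant columns, and with the register as deposited ARG7 was not called in reg1. The call of ARG7 in reg1 lay just under the threshold and was lost after centring, with the mutant arrays' own spread, with a replicate block (the experiment number as a term) and without any 1 of the 4 arrays.

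Of 7 listed regulators of the arginine genes, 5 were measured on both mutant arrays and none was called, SIN3 being the farthest from 0 at 0.56. After alkali the corepressor subunit gene SIN3 (1.72 ± 0.14) and UME6 (0.76 ± 0.15), whose product represses CAR1 and CAR2, rose, and ARG82, an inositol polyphosphate kinase gene needed for arginine control, fell to -0.80 ± 0.18. These 3 of 5 tested lie near the 61.8% of all genes that were called after alkali. ARG80 had 0.16 and 0.25 after alkali and was not called. ARG81 had a value on 1 alkali array only, -0.11, and MCM1 on none of the 4 arrays.

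Among genes of general amino acid control, none of 5 tested was called in reg1, where GCN4 itself had 0.49 and 0.99. Over all genes 7.16% were called in reg1 and 61.8% after alkali. After alkali GCN1 (2.37 ± 0.01), needed to activate the kinase Gcn2, and PCL5 (1.33 ± 0.03), a cyclin gene that is a target of Gcn4 and promotes its turnover, rose. GCN4 (-0.89 ± 0.05) and GCN3 (-1.61 ± 0.19), a subunit gene of the initiation factor eIF2B, fell. GCN4 is known to be controlled mainly in translation, which RNA ratios do not show.

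Transport genes for arginine had none of 7 called in reg1, and 5 higher and 1 lower of 9 after alkali. Over all genes 7.16% and 61.8% were called in these comparisons, and the 6 of 9 called here lie near that share. YPQ3, a vacuolar membrane transporter gene, rose to 2.61 ± 0.55, the plasma membrane permease genes ALP1 to 1.99 ± 0.27, GAP1 to 1.62 ± 0.30 and CAN1 to 0.94 ± 0.05, and VBA1 to 0.66 ± 0.25. YPQ1 fell to -0.62 ± 0.22. The farthest from 0 in reg1 was YPQ3, at 0.47.

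Proline links arginine breakdown to glutamate. PUT4, the proline permease gene, fell in reg1 to -1.54 ± 0.15 (limma adjusted p = 0.00837). PUT1, proline oxidase, fell to -1.14 ± 0.11 (limma adjusted p = 0.0128) and was not called with the mutant arrays' own spread. The other 5 of 7 were not called, and over all genes 1.95% were called lower. After alkali PUT4 rose to 4.34 ± 0.33 and PUT1 to 3.55 ± 0.16 (limma adjusted p = 0.000135 for each), PUT3, their activator gene, to 1.44 ± 0.26, and PUT2 to 0.71 ± 0.12. PRO1, which starts proline synthesis, fell to -0.79 ± 0.04. PUT1 and PUT4 thus had the signs of ARG1 and ARG4 on all 4 arrays, as read here. Both are read 2 rows down in the mutant columns. With the register as deposited, PUT1 was not called in reg1 and PUT4 was not tested there.

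Of 5 genes of glutamate and glutamine metabolism, 3 rose in reg1 and none fell, against 5.2% higher and 1.95% lower over all genes. GDH2, the catabolic glutamate dehydrogenase, had a mean of 2.33 ± 0.50, and GDH1 (1.65 ± 0.66) and GDH3 (1.09 ± 0.15), which make glutamate, rose as well. GDH1 is read 2 rows down in the mutant columns, and it was not called in reg1 with the register as deposited. After alkali GDH2 rose to 2.54 ± 0.19 and GDH3 to 0.47 ± 0.10 (not called with a replicate block), and GDH1 fell to -0.80 ± 0.08. GDH1 and GDH3 are close copies whose spots may share signal. Polyamine genes, which draw on ornithine, had none of 4 called in reg1, where SPE3 was farthest from 0 at -0.53. After alkali SPE3 (-0.94 ± 0.03), SPE2 (-0.59 ± 0.13) and SPE4 (-0.53 ± 0.08, not called after centring) fell, 3 of 5. With arrays scaled to the same spread, none of these 3 was called. Of all genes 61.8% were called after alkali, 29.1% higher and 32.7% lower.

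Genes for using urea and allantoin, and the regulators of nitrogen catabolite repression, were poorly measured, with 3 of 10 and 3 of 5 tested in each comparison. None was called in reg1, where DAL7 (-0.58) and GAT1 (-0.43) were the farthest from 0 among the tested genes. Over all genes 7.16% were called in reg1 and 61.8% after alkali, so nothing is read from the calls of these few genes. DAL1 (-2.38) and DUR3 (-1.66) lay lower but had a value in mutant experiment 1 only, so they were not tested there. After alkali DAL1 (0.74 ± 0.07), allantoinase, and the activator genes GLN3 (1.46 ± 0.02) and GAT1 (0.69 ± 0.53) rose. The urea amidolyase gene DUR1,2, which acts on the urea that arginase releases, had 1 value in each comparison, 0.01 in the mutant and 1.08 after alkali.

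Synthesis genes of other amino acids were read beside the arginine genes. Of 44 tested in reg1, SER3 (0.71 ± 0.02) was called higher, none was called lower, and the list ran from -0.63 to 0.76, a range that ARG1, ARG4 and ARG5,6 lie below. SER3 lost the call without any 1 of the 4 arrays and with the mutant arrays' own spread. After alkali 8 of 44 rose and 16 fell, with a median of -0.23, against 29.1% higher and 32.7% lower over all genes. ARO1 (1.96 ± 0.06), HIS4 (1.66 ± 0.23) and LEU4 (1.46 ± 0.01) were the highest, and ARO7 (-1.62 ± 0.16), LYS4 (-1.35 ± 0.25) and LYS12 (-0.93 ± 0.05) the lowest. With arrays scaled to the same spread, only ARO7 and LYS4 of those that fell were still called, and LYS12 was not. Of those that rose, only ARO1, HIS4, LEU4, LYS14 and SER3 were still called with that scaling. The means of ARG3, CPA1 and ARG5,6 lay above that of ARO1. The difference between the lists was not tested, since the members were chosen with these results known.

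**Figure D4:**
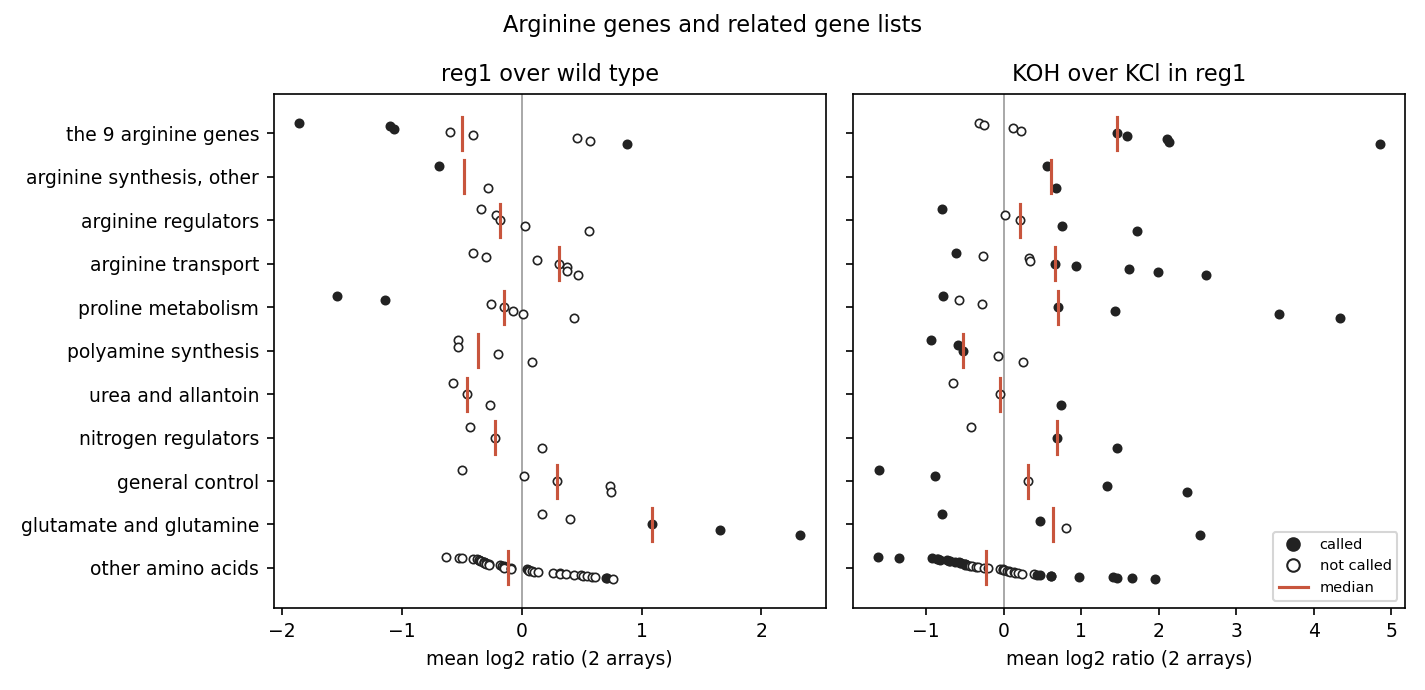
Mean log2 ratio of 2 arrays (horizontal axis) for each gene of the arginine set and of 10 related lists, for reg1 over wild type on the left and KOH over KCl in reg1 on the right. Filled points were called by limma, open points were not, and red bars are list medians. ARG1 is the lowest point on the left and GDH2 the highest, and ARG3 is the highest on the right.

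Outside the list of other amino acids, 43 listed non-member genes were tested after alkali. Of these 29 were called, 20 higher and 9 lower, near the 61.8% of all genes. With arrays scaled to the same spread 12 were still called, 11 higher and 1 lower. So were 1238 of all 4584 genes, a similar share. The 12 were SIN3, ALP1, GAP1, YPQ3, PUT1, PUT3, PUT4, GLN3, GCN1, GCN3, PCL5 and GDH2, and of these GCN3 was the lower one. The other 17, among them ARG7, ORT1 and GCN4, lost the call without 1 or both of the alkali arrays. In reg1 6 of 41 tested were called, against 7.16% of all genes. With the mutant arrays' own spread PUT4, GDH1 and GDH2 were still called, as were 153 of all 4765 genes. The calls of PUT4 and GDH1 rest on the displacement. PUT1 lost the call without either alkali array, and GDH3 without either of them and without mutant experiment 2.

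The genes on either side of each member in the R64 gene order were also read, a choice made after seeing the data. Of these 18 neighbours, 14 were tested in reg1 with a median of 0.02, and the only one called was GDE1, beside CAR1 (1.01 ± 0.12). After alkali 12 were tested with a median of -0.34, 2 higher and 4 lower. Over all genes 7.16% were called in reg1 and 61.8% after alkali, and nothing is read from the neighbours' counts. SIP4, which encodes an activator of gluconeogenic genes and precedes ARG3, had 5.02 and 5.10, close to the ARG3 values of 5.11 and 4.59, and GDE1 had 1.57 and 1.31. SIP4 had no value on the mutant arrays. Whether the spots of SIP4 and ARG3 share signal was not tested. YOR302W, the small upstream reading frame on the CPA1 messenger RNA, had no value on the 4 arrays.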

How the data were processed

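The authors deposited 1 table with a log2 ratio per row and array. Per the labels, oligo(dT)-primed cDNA from 8 µg of total RNA was labelled indirectly, and spots under 120 µm in diameter, or under 100 units in Cy3 and Cy5, were dropped by the authors. The scanner and any background correction or normalization: not given in the sources used here. No source states the log base, which was taken as 2, since the highest value, 9.1, would as a natural log be an 8955-fold ratio. Column medians were -0.028 and -0.068 for the mutant and -0.120 and -0.040 for alkali. Centring by the authors is unknown, and none was added. Correlations within comparisons were positive, so no sign was turned.

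Rows were named through RefSeq's R64 table (5662 of 6212 matched). The table names no build, so no coordinates are given. In rows YKL011C to YPR204W the mutant values were read 2 rows further down, and 199 rows, YAL067C to YBR047W, were left out. The members and the 10 lists were chosen with earlier results of these data known.

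Means were tested against 0 with limma 3.58.1 (R 4.3.3), all 4 arrays in 1 fit (prior degrees of freedom 3.68). A gene was tested where both arrays of the comparison had a value. The code was tested on simulated data. Named genes were the members, REG1, the called genes of each list (in the list of other amino acids the 3 largest each way), the gene farthest from 0 where none was called, and the 5 nearest to ARG1 and CAR1. Precision is limited by the number of arrays. Signal over background is unknown. Alternatives changed the register, centring, scaling, spread, dye term, replicate block, rows tested and arrays. Promoter motifs were planned and not analysed here, and 1 gene of the lists is not reported here.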

Additional observations from a re-analysis of the deposited data

How the results depend on the processing

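All 9 members kept their sign under the alternatives run, except ARG8 in reg1 over wild type with the register as deposited (-0.40, reported as 0.57) and ARG2 after alkali without experiment 1 (-0.11, reported as 0.13). In reg1 over wild type, the deposited register left 2 members and 2 listed pathway genes called (reported as 4 and 6), since different rows were read. With arrays scaled to the same spread 601 of all genes were called, and with a dye term 801, against 341. With the spread of the comparison's own arrays it was 153 of all genes, 1 member and 3 pathway genes. Leaving out 1 array gave 153 to 285 genes, 1 member each time (ARG3 without mutant experiment 2, otherwise ARG1) and 3 to 7 pathway genes. The fits that drop an alkali array hold no spread but that of the mutant arrays, so they equal the fit of those arrays alone. After alkali, scaling left 1238 of all genes (reported as 2832) and 12 pathway genes (reported as 29), and leaving out 1 array gave 1342 to 3275 genes and 12 to 34 pathway genes. Without an array of its own, a comparison rests on 1 array, which is assumed to vary like the others. The cause of the other changes was not tested.

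With the experiment number as a replicate block, 420 genes, 4 members and 7 pathway genes were called in reg1 over wild type, and 2867 genes, 5 members and 31 pathway genes after alkali. The deviations of same-numbered arrays correlated at r = -0.09 over 4315 genes. Same-numbered arrays of the comparisons had opposite signs in the dye term, and a dye effect could hide a shared deviation. This value therefore does not show whether the numbers pair the arrays. The 2 arrays per comparison, and the missing ARG3 value, limit the precision. Weak spots have no value. Promoter motifs, and the shorter window planned for them, were not run.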
